A study of Mus musculus with 2 samples.

Results

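The genes described here are 7 genes of MHC class II antigen presentation: H2-Aa, H2-Ab1, H2-Eb1, H2-DMa, H2-DMb1, Cd74 and Ciita. They were taken by symbol from the 31053 genes of the deposited count tables, and all 7 were found. Single-cell RNA-seq was available from dental pulp, the soft tissue inside the tooth, of C57BL/6 mice at postnatal day 12. There were 2 libraries, 1 from mice labelled only as control and 1 from mice whose endothelial cells were knocked out for Vegfr2, the main receptor for vascular endothelial growth factor. The labels name neither the Cre driver, the allele nor the number of animals behind a library. In both libraries the pulp was digested with enzymes, and cells that excluded propidium iodide, a dye that enters dead cells, were sorted. Of 35918862 UMIs (unique molecular identifiers, counted molecules) the 7 genes held 348928 in control pulp, and of 17277162 UMIs 233665 in knockout pulp.

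MHC class II molecules carry peptides from engulfed proteins to the surface of a cell, where CD4 T cells read them. H2-Aa and H2-Ab1 encode the alpha and beta chains of I-A, and H2-Eb1 the beta chain of I-E. Cd74, the invariant chain, holds the groove shut until H2-DM, built from H2-DMa and H2-DMb1, exchanges its last fragment for a peptide. Ciita is the coactivator that switches the whole group on, and dendritic cells, B cells and activated macrophages are the classic presenting cells.

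Ciita does not bind DNA itself but docks on factors bound to short boxes upstream of its target genes, among them the Y box, an inverted CCAAT motif read as TGATTGG. The upstream sequences of H2-Aa and H2-Eb1 are shown because both carry that box and their levels followed each other across the cell classes described below. Capitals mark TGATTGG and, in H2-Eb1, a further run from the neighbouring X box region, TGATGATGC. Both are the 120 bases before the start site in RefSeq, build GRCm38.p6, given 5′ to 3′ on the strand of the gene, chr17:34287824-34287943 (minus strand) for H2-Aa and chr17:34305747-34305866 (plus strand) for H2-Eb1.
H2-Aa: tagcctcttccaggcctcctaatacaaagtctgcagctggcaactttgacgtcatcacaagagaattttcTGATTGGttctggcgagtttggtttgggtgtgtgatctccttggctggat
H2-Eb1: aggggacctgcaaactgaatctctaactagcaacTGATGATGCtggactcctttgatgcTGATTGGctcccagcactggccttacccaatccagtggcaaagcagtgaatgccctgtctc

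Promoter sequences were matched for 4 of the 7 genes. Searched on both strands over the 250 bases before the start site, TGATTGG was found in 2375 of 32851 promoters (7.23%) and TGATGATGC in 70 (0.213%). The motifs do not overlap each other in these windows. The first base of TGATTGG lay at position -50 from the start site in H2-Aa, -61 in H2-Eb1 and -63 in H2-DMb1. H2-DMb1 also held TGATGATGC, at -89, against -86 in H2-Eb1. These letters were not in the H2-DMa windows. The box was shared by other class II genes that are not among the 7, at -92 in H2-DMb2, -102 in H2-Eb2, -45 in H2-Oa and -59 in H2-Ob.

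In the GENCODE annotation of GRCm38, 5 of the genes lie together on chromosome 17: H2-DMa at 34119541-34139101, H2-DMb1 at 34153072-34160230, H2-Ab1 at 34257689-34269419, H2-Aa at 34282744-34287823 and H2-Eb1 at 34305867-34316674. Ciita lies at 10480059-10528418 on chromosome 16. Some counts are uncertain by position or by copy. H2-Eb1 overlaps the antisense gene Gm20513, H2-DMa overlaps Brd2, and Ciita overlaps Dexi, all on the opposite strand. H2-DMa also overlaps CR974462.3 on its own strand, and no source used here gives the strand setting of the counting. H2-DMb1 shares 52 of 411 windows of 90 bases at its 3′ end with its near copy H2-DMb2, so reads from those windows could come from either gene. The 3′ end of H2-DMb2 shares 6 of 411 windows, with Zw10 only.

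After filtering, 2309 control and 1679 knockout cells remained, with medians of 12198 and 8293 UMIs. Cells were assigned to classes by counting detected marker genes, none of them a class II gene. The dendritic gate, whose cells are called dendritic cells below, held 238 control and 188 knockout cells, the macrophage gate 101 and 69, the monocyte gate 54 and 96, the B gate 30 and 29, and the stromal gate 540 and 341. A further 134 and 159 immune cells met no gate. These 5 gates held their defining markers in both libraries, except that Il12b, 1 of 12 dendritic markers, had 0 UMIs in the knockout dendritic gate. The monocyte markers summed to more than the dendritic markers in the dendritic gate, at 1918 against 1425 CPM in the control and 1793 against 1473 in the knockout library. In clusters made without the 7 genes, 174 of 238 control (73.1%) and 73 of 188 knockout cells of this gate (38.8%) lay in an unnamed cluster led by Cd209a and Tnip3, whose best marker list was that of monocytes. In endothelial cells Kdr, which encodes VEGFR2, stood at 1074 CPM (UMIs scaled to the UMI total of the class; 1045 to 1103) in the control and 697 (645 to 753) in the knockout library. A 3′ read need not cover the deleted part, so this level does not check the deletion. The libraries shared 2 of the kept cell barcodes. With 1 library per genotype no test was possible, and bracketed ranges are exact 95% intervals that cover counting error only. The matrices were written by different versions of Cell Ranger, so software and genotype cannot be told apart.

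Dendritic cells held by far the most class II RNA, followed in the control library by macrophages, B cells, monocytes and stromal cells. Summed over the 7 genes, the control level was 53134 CPM in dendritic, 20257 in macrophage, 9650.4 in B, 7580.5 in monocyte and 154 in stromal cells. In the knockout library it was 56364, 9110.25, 11299, 3711 and 381 CPM in the same classes. The intervals of neighbours in both orders did not overlap, but B cells stood above macrophages in the knockout library and below them in the control. Cd74 was the most abundant of the 7 in every one of these classes but the control stromal cells, where H2-DMb1 stood at 37.3 CPM (33.0 to 41.9) and Cd74 at 34.1 (30.1 to 38.5). UMIs from 3′ ends count molecules and were not scaled to gene length.

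**Figure D1:**
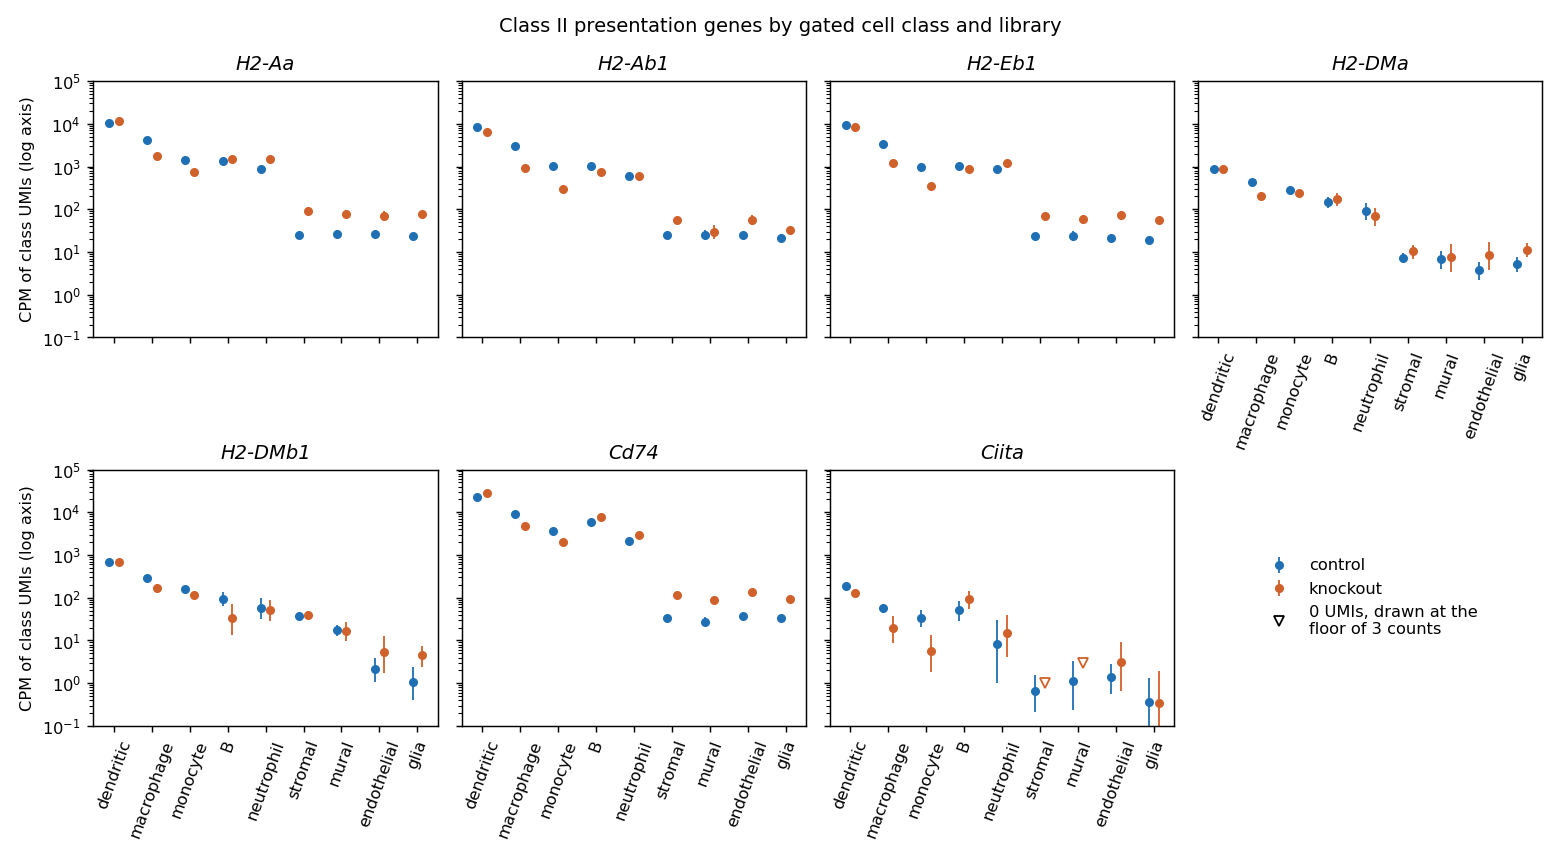
Level of each gene in 9 gated cell classes, in CPM of the class's UMIs on a log axis. Points are the control (blue) and knockout (orange) library, bars are exact 95% counting intervals, and open triangles mark 0 UMIs, drawn at the floor of 3 counts. All 7 genes were highest in dendritic cells, and H2-DMb1 was higher in stromal and mural cells than in glia in both libraries.

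Class II RNA in dendritic cells differed little in sum between the libraries, but its members did not move together. Cd74 was higher in the knockout library, at 27871 against 23115 CPM (knockout over control ratio 1.21, 1.20 to 1.22), and H2-Aa was higher at 11894 against 10572 (1.13, 1.11 to 1.14). The beta chain genes were lower: H2-Ab1 stood at 6295 against 8387 CPM (0.750, 0.737 to 0.764) and H2-Eb1 at 8607 against 9297 (0.926, 0.911 to 0.941), the latter at 1.005 with median-of-ratios scaling. The 2 genes of the peptide exchanger had ratios whose intervals included 1, H2-DMa at 885 against 897 CPM (0.987, 0.939 to 1.04) and H2-DMb1 at 684 against 677 (1.01, 0.954 to 1.07). Ciita was lower, at 128 against 189.6 CPM (0.675, 0.595 to 0.765). None of the 7 differed by 1.5-fold, against a background of 8.57% of 10036 genes that were at least 1.5-fold higher and 14.4% that were at least 1.5-fold lower in the knockout dendritic cells. The median log2 ratio was -0.02 over the 7 genes and -0.12 over all genes, and the summed ratio was 1.06 (1.05 to 1.07).

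Nearly every dendritic cell was class II high, in both libraries. The lowest cell had 306 and the highest 99977 CPM in the control, around a median of 54161, and the knockout cells ran from 661 to 107337 CPM around a median of 56226. A level of at least 3000 CPM was found in 235 of 238 control and 183 of 188 knockout dendritic cells. That limit was chosen with the cells in view and lies in the gap between low and high macrophages. The ranges overlapped over almost their whole length.

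The makeup of the dendritic gate differed between the libraries. Cells with a UMI of Ccr7, a homing receptor of mature dendritic cells, and none of Xcr1 or Clec9a made up 45 of 188 knockout cells (23.9%, 18.0 to 30.7) but 14 of 238 control cells (5.88%, 3.25 to 9.67). Their summed level was 68287 CPM in the knockout and 54480.1 in the control library, and their Ciita level was 79.9 and 189.5 CPM. Cells with a UMI of Xcr1 or Clec9a, marks of cross-presenting dendritic cells, made up 49 of 188 knockout (26.1%) and 34 of 238 control cells (14.3%). They had the lowest sums, 37389 and 36423 CPM, and Ciita at 169 and 172 CPM. The Cd209a cells without those genes were the largest set, 87 knockout and 183 control cells, at 60945 and 56185 CPM, with Ciita at 128 and 194 CPM. By this split Ciita was lower in the knockout Ccr7 and Cd209a cells and close in the Xcr1 or Clec9a cells. The cluster led by Ccr7 and Bcl2a1b held 4 control and 47 knockout cells of the gate, at 73876 and 74611.5 CPM. Most of the 14 control Ccr7 cells therefore lay outside it. Over all 5 control and 72 knockout cells of that cluster, Ciita was close, at 70.8 CPM (26.0 to 154, 6 UMIs) and 64.5 (49.2 to 83.0). Where clusters took the place of gates, only the cluster led by Irf8 and Naaa was named dendritic, and the Ciita ratio in that cluster was 1.18.

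Ciita was seen in 222 of 238 control dendritic cells (93.3%) and 134 of 188 knockout cells (71.3%). Thinned to 2000 UMIs a cell, these shares were 30.3% (24.5 to 36.5) and 23.5% (17.6 to 30.3), with overlapping intervals. The unthinned shares come from cells with a median of 19604 UMIs in the control and 14043 in the knockout library. In glia, which serve here as the background of free RNA, Ciita was seen in 0.489% and 0.333% of cells at 12478 and 9128.5 UMIs.

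In the macrophage gate the whole group was lower in the knockout library. All 7 genes were at least 1.5-fold lower in the knockout library, against 12.2% of 7886 genes. H2-Ab1 stood at 905 against 3061 CPM (0.296, 0.267 to 0.327), H2-Eb1 at 1191 against 3345 (0.356, 0.325 to 0.389) and H2-Aa at 1809 against 4153 (0.435, 0.404 to 0.468). H2-DMa was at 204 against 441 CPM (0.461), H2-DMb1 at 167 against 284 (0.587) and Cd74 at 4815 against 8917 (0.540). Ciita had 9 UMIs in the knockout and 75 in the control macrophages, a ratio of 0.347 (0.153 to 0.694). The median log2 ratio was -1.20 over the 7 genes and 0.13 over all genes, and the summed ratio was 0.450 (0.435 to 0.465).

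**Figure D2:**
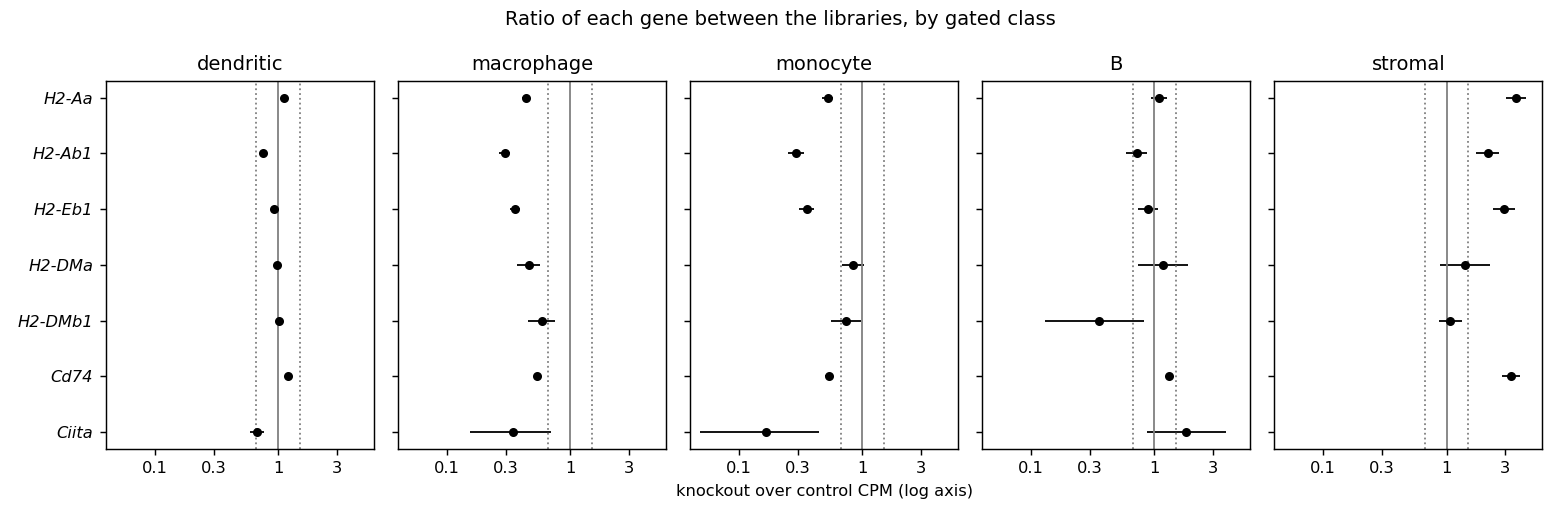
Knockout over control ratio of each gene in the 5 gated classes, on a log axis, with exact 95% counting intervals. The solid line marks 1 and dotted lines mark 1.5-fold; all 7 macrophage points lie left of the lower dotted line, all 7 dendritic points lie between the dotted lines, and Ciita in stromal cells, with 5 and 0 UMIs, has no point.

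The knockout macrophage gate held fewer class II high cells. Macrophages fell into a low and a high set in both libraries: 43 of 101 control cells (42.6%, 32.8 to 52.8) and 11 of 69 knockout cells (15.9%, 8.24 to 26.7) had at least 3000 CPM, and only 5 and 3 cells lay within a factor of 2 of that limit. Among the high cells the summed level was 34114 CPM in the control and 35264 in the knockout library, while the median high cell stood at 37668 and 21683 CPM. Among the low cells, 58 in each library, it was 291 and 507 CPM. A single knockout cell held 27.7% of the class II UMIs of its gate, and without the top cell of each library the ratio was 0.355.

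The high macrophages were marked by Ccr2, a chemokine receptor of cells derived from blood monocytes. A Ccr2 UMI was found in 53 of 101 control macrophages (52.5%) and 18 of 69 knockout macrophages (26.1%), and these cells were deeper, at medians of 17073 and 8445.5 UMIs against 8679.5 and 5290 in those without. Macrophages with Ccr2 held 29876 CPM in the control and 24525 in the knockout library, a ratio of 0.821, but their median cell stood at 27756 and 4099 CPM. Of these cells 43 of 53 in the control (81.1%) and 9 of 18 in the knockout library (50%) reached 3000 CPM. Macrophages without it held 236 and 608 CPM, a ratio of 2.58 in the opposite direction, and glia moved the same way, from 104 to 279.5 CPM (2.70). Cells with Folr2, a gene of resident tissue macrophages, were also low, at 447 CPM over 36 control cells and 723 over 35 knockout cells.

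Clusters made without the class II genes drew the same line. The cluster led by C1qb and Fcgr1 held 41 of the control macrophages (40.6%) and 12 of the knockout macrophages (17.4%), at 33348 and 29099 CPM, with medians over cells of 30780.5 and 9013 CPM. The cluster led by Pf4 and Mrc1 held 51 (50.5%) and 54 (78.3%), at 401 and 813 CPM. These levels are of gated macrophages only. All cells of the C1qb and Fcgr1 cluster, 114 control and 50 knockout, had medians of 20505 and 23509 CPM. There H2-Aa (6483 against 5822 CPM), Cd74 (17074.5 against 13159), H2-DMa, H2-DMb1 and Ciita were higher in the knockout library. H2-Ab1 (3393 against 4337 CPM) and H2-Eb1 (4384 against 4584) were lower. Only the Pf4 cluster was named macrophage, and with it in place of the gate the summed ratio was 1.42, above 1. Different clusters therefore held most of the class II RNA and most of the cells of this gate. A stricter gate with 1 more marker gave 0.242.

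**Figure D3:**
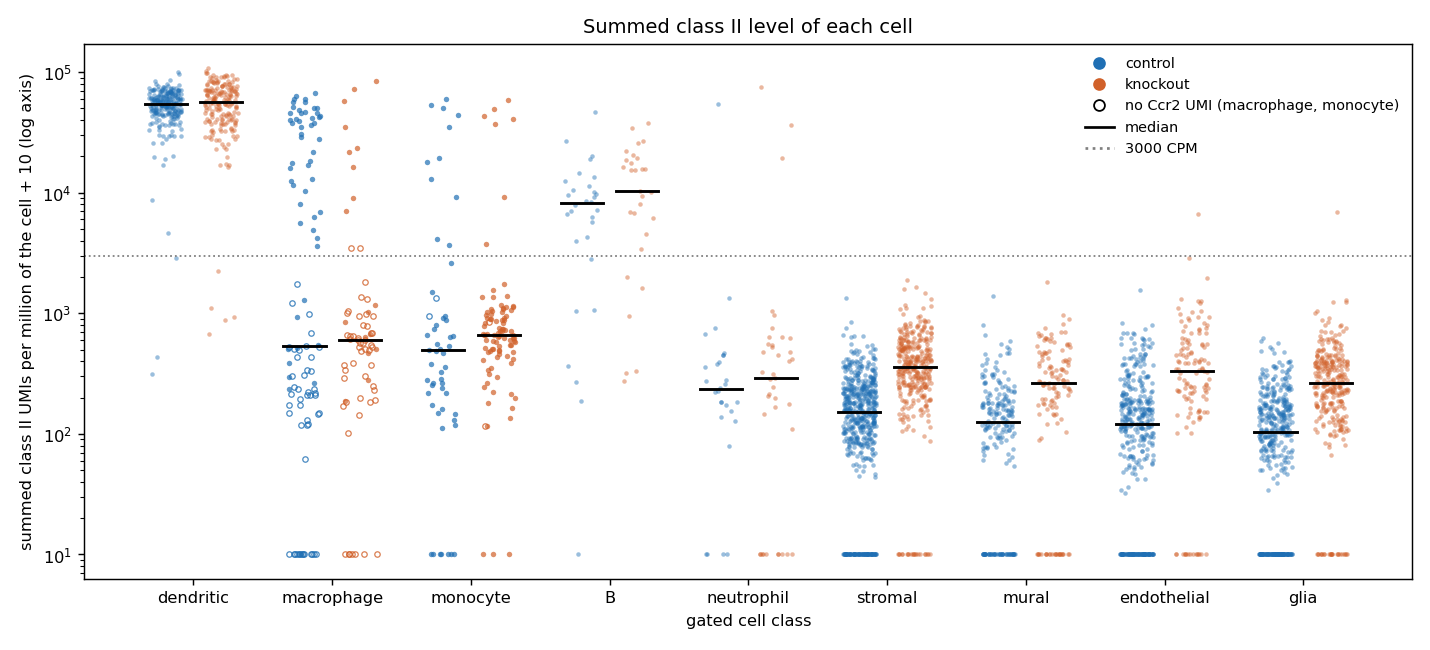
Summed level of the 7 genes in each cell, in CPM of that cell plus 10 on a log axis, by gated class and library. Lines are medians and the dotted line marks 3000 CPM; macrophages and monocytes split into a low and a high set, with open circles (no Ccr2 UMI) in the low set but for 2 knockout macrophages.

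Monocytes, the blood-borne precursors of inflammatory macrophages, were lower in the knockout library in 5 of 7 genes by at least 1.5-fold, against 16.2% of 6537 genes. H2-Ab1 was at 303 against 1046 CPM (0.289, 0.2499 to 0.334), H2-Eb1 at 351 against 988 (0.355), H2-Aa at 731 against 1394 (0.525) and Cd74 at 1964 against 3676 (0.534). Ciita had 5 and 21 UMIs (0.164, 0.0483 to 0.447). H2-DMb1 at 117 against 158 CPM (0.739) and H2-DMa at 239 against 284 (0.840, 0.684 to 1.03) differed less, and the interval of H2-DMa included 1.

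Few monocytes carried most of this RNA. At least 3000 CPM were found in 11 of 54 control (20.4%, 10.6 to 33.5) and 7 of 96 knockout monocytes (7.29%, 2.98 to 14.5), while the median cell stood at 484 and 655 CPM. The median log2 ratio of the 7 genes was -0.93, against -0.04 over all genes. The summed ratio of 0.489 (0.468 to 0.512) and the medians over cells pointed in opposite directions. The cluster led by C1qb and Fcgr1 held 23 of 54 control (42.6%) and 10 of 96 knockout monocytes (10.4%), at 16019.7 and 11753 CPM, and with them 4513 of 4644 and 1135 of 3298 class II UMIs. The other monocytes, in the cluster led by Ly6c2 and Hp, stood at 396 CPM in the control and 2730.2 in the knockout library. Their median cells stood at 316 and 650 CPM, and few cells carried the higher knockout sum. All 89 knockout monocytes under 3000 CPM held 543 class II UMIs, against 2163 in the gated cells of that cluster. Over all cells of the C1qb and Fcgr1 cluster the median was higher in the knockout library, at 23509 against 20505 CPM, as given above. The 10 neutrophil markers summed to 5514 CPM in the knockout monocyte gate and 264 in the control gate, and Chil3, a monocyte marker, had 234 and 4 UMIs; their part in the result was not tested. With 1 more marker required the ratio was 0.163, and in the 10 control and 19 knockout monocytes with Y-linked UMIs it was 1.72.

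The H2-DM genes and Cd74 stood above their levels in glia in class II low monocytes and macrophages. Among monocytes under 3000 CPM, H2-DMa was at 168 CPM (133 to 209) in the control and 185 (156 to 217) in the knockout library, 32 and 16 times its level in glia. H2-Aa in the same cells was at 34.4 and 89.9 CPM, against 23.4 and 78.6 in glia. Cd74 was at 194 and 242 CPM in these monocytes and at 115 and 150 in macrophages under 3000 CPM, against 33.0 and 94.4 in glia. H2-DMa UMIs came to 86.7% (63.2 to 119) and 76.1% (61.2 to 94.6) of Cd74 UMIs in these monocytes, but to 3.88% and 3.18% in dendritic cells and 15.8% and 12% in glia. H2-DMb1 in these monocytes was lower in level, at 34.4 and 57.8 CPM, or 17.8% and 23.9% of Cd74 UMIs, against 3.28% and 4.73% in glia. In both libraries class II low monocytes therefore held both H2-DM genes above their level in glia. In macrophages under 3000 CPM, H2-DMa UMIs came to 49.2% and 50% of Cd74 UMIs, and H2-DMb1 UMIs to 28.6% and 46.2%. The cells were picked by their summed level, of which these genes and Cd74 are a part, so the pick itself held Cd74 low. Over the whole monocyte gate H2-DMa UMIs came to 7.73% and 12.1% of Cd74 UMIs, and over the whole macrophage gate to 4.95% and 4.23%.

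B cells, which present antigen taken up through their receptor, differed less between the libraries over the whole gate. Their summed level was 11299 against 9650.4 CPM (1.17, 1.11 to 1.24), and 23 of 29 knockout and 23 of 30 control cells had at least 3000 CPM. Cd74 was at 7889.5 against 5970.3 CPM (1.32, 1.23 to 1.42), H2-Aa at 1472 against 1349 (1.09, 0.937 to 1.27), H2-Eb1 at 891 against 1003 (0.888) and H2-Ab1 at 746 against 1034 (0.721, 0.590 to 0.879). H2-DMa was at 174 against 147 CPM (1.18, 0.739 to 1.89). Ciita, with 19 and 15 UMIs, was 1 of 7 past 1.5-fold higher (1.79, 0.863 to 3.79), against 12.8% of 3478 genes, and H2-DMb1, with 7 and 28 UMIs, 1 of 7 past 1.5-fold lower (0.354), against 17.4%. A single control cell held 34.8% of the class II UMIs of its gate, and it lay in the cluster led by Cd209a and Tnip3. The other 29 control cells lay in the cluster led by Igkc and Ly6d, at 6777 CPM. All 29 knockout cells lay there too, at 11299 CPM. Without the top cell of each library the H2-DMb1 ratio was 1.37, on the other side of 1, and the summed ratio 1.57.

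Stromal cells, the collagen-producing cells of the pulp, held little class II RNA, and most of it was at the level found in classes not known for antigen presentation. Cd74 stood at 34.1 CPM in the control and 114 in the knockout library (3.35, 2.84 to 3.95), H2-Aa at 25.4 and 92.4 (3.64, 3.02 to 4.40), H2-Eb1 at 23.5 and 68.8 (2.92, 2.38 to 3.59) and H2-Ab1 at 25.6 and 55.4 (2.16, 1.75 to 2.67). These were 4 of 6 measured genes at least 1.5-fold higher, against 11.7% of 12625 genes, with a median log2 ratio of 1.33 against -0.05 over all genes. In glia the same genes stood at 33.0 and 94.4, 23.4 and 78.6, 18.9 and 57.0, and 21.6 and 33.3 CPM, and all 5 genes measured there were past 1.5-fold higher, against 10.5% of 11334 genes, with 8.83% lower. The summed ratio was 2.48 (2.28 to 2.69) in stromal, 2.70 (2.42 to 3.01) in glial, 2.18 (1.86 to 2.56) in mural and 3.02 (2.63 to 3.46) in endothelial cells, so the higher level was not particular to stromal cells. No stromal cell reached 3000 CPM. Ciita had 5 UMIs in 540 control cells and 0 UMIs in 341 knockout cells, for which the exact upper limit was 1.23 CPM. With the glial level subtracted, the stromal ratio was 2.02.

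H2-DMb1 was the exception in stromal cells. It stood at 37.3 CPM (33.0 to 41.9) in the control and 40.0 (33.2 to 47.9) in the knockout library, a ratio of 1.07 (0.861 to 1.34), and was in 209 of 540 (38.7%) and 100 of 341 cells (29.3%). Thinned to 2000 UMIs the shares were 7.49% (5.41 to 10.1) and 7.58% (4.96 to 10.98). Glia, at similar depth, stood at 1.08 CPM (0.396 to 2.35) and 4.46 (2.38 to 7.63), with thinned shares of 0.245% and 2.03%. Endothelial cells stood at 2.18 and 5.35 CPM, and mural cells, the cells that wrap vessels, at 17.3 and 16.7.

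Measured against Cd74, H2-DMb1 UMIs came to 109% (92.0 to 130) and 35.1% (28.3 to 43.3) of Cd74 UMIs in stromal cells, but to 2.93% and 2.45% in dendritic cells and 3.28% and 4.73% in glia. The stromal share of H2-DMb1 thus differed from that of the class II high cells beyond counting error in both libraries. Its partner H2-DMa stood at 7.27 and 10.3 CPM in stromal cells, against 5.22 and 11.3 in glia, and the near copy H2-DMb2 had 2 and 1 UMIs. In clusters made without the 7 genes, H2-DMb1 stood at 40.1 and 39.0 CPM in the stromal cluster led by Angpt4 and Col9a3 and at 38.8 and 39.5 in that led by Igfbp5 and Sp9. In the stromal cluster led by Pcp4 and Smoc2 it stood at 34.8 and 15.8 CPM, the latter from 2 UMIs (1.91 to 57.0). It was at 39.9 and 44.0 CPM in the unnamed cluster led by Ambn and Cldn10.

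**Figure D4:**
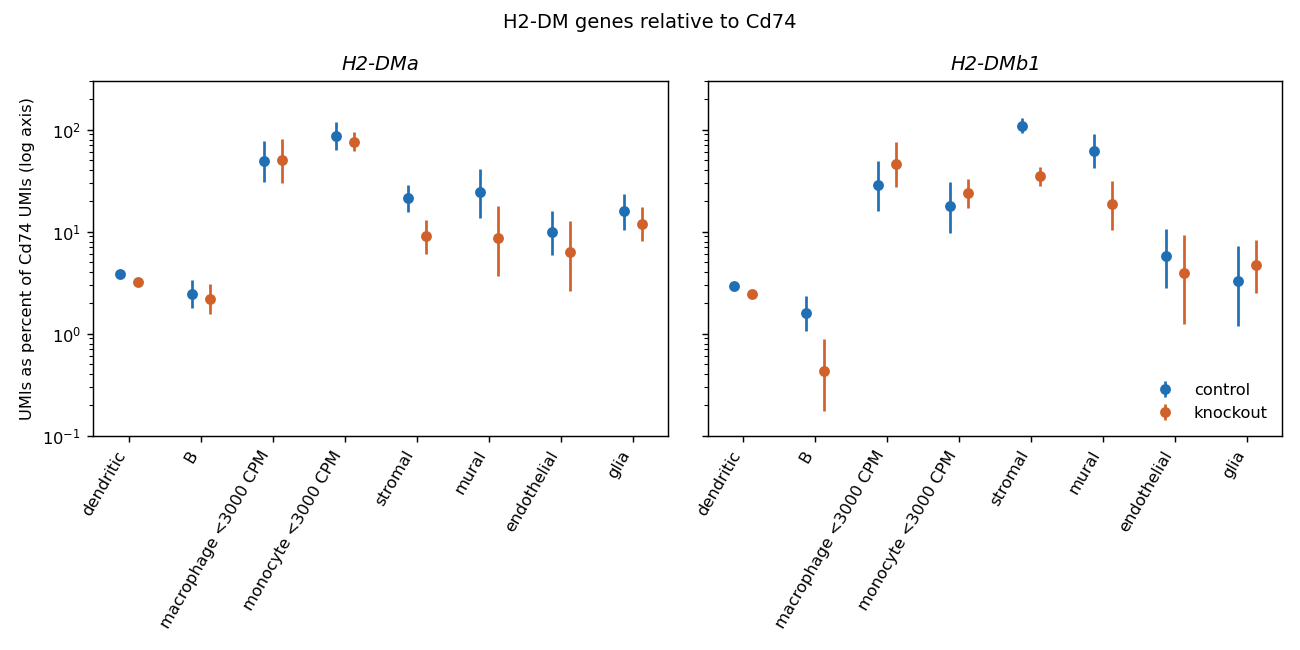
UMIs of H2-DMa (left) and H2-DMb1 (right) as a percent of Cd74 UMIs in the same cells, on a log axis, with exact 95% counting intervals, in dendritic, B, low macrophage, low monocyte, stromal, mural, endothelial and glial cells of both libraries. H2-DMa was highest against Cd74 in low monocytes, at 86.7% and 76.1%, and H2-DMb1 in control stromal cells, at 109%. Low macrophages and monocytes were picked by their summed level, of which Cd74 is a part.

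The balance between the genes differed between the libraries in the same direction in all 9 classes of the plot of H2-Ab1 per H2-Aa. In dendritic cells there were 0.793 H2-Ab1 UMIs per H2-Aa UMI (0.783 to 0.804) in the control and 0.529 (0.519 to 0.539) in the knockout library. Macrophages had 0.737 and 0.501, monocytes 0.751 and 0.414, B cells 0.766 and 0.507, and stromal cells 1.01 and 0.599. Glia, which serve here as the background of free RNA, had 0.923 (0.714 to 1.19) and 0.424 (0.331 to 0.539). Stromal, mural, endothelial and glial cells may hold free RNA of the presenting cells, so the 9 classes are not separate observations. The intervals did not overlap in 8 classes and overlapped in endothelial cells, at 0.962 and 0.815. Among the 8 were neutrophils, where a single cell held 96.0% of the control and 70.3% of the knockout class II UMIs. Within dendritic cells the shift was seen in the Xcr1 or Clec9a cells (0.9402 and 0.637), the Ccr7 cells (0.764 and 0.485) and the Cd209a cells (0.779 and 0.517). Genotype, the animals and the software version cannot be told apart here.

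**Figure D5:**
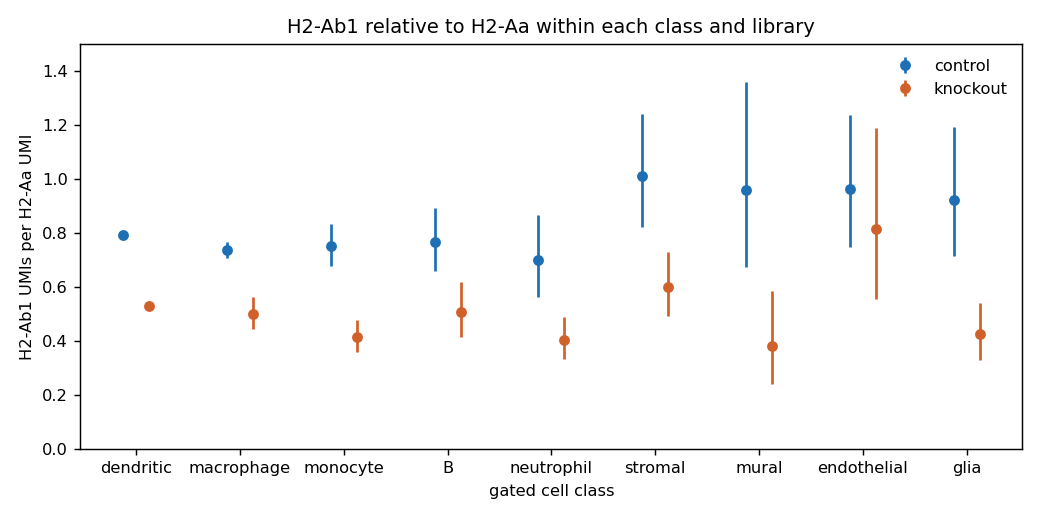
H2-Ab1 UMIs per H2-Aa UMI in 9 gated classes of the control (blue) and knockout (orange) library, with exact 95% counting intervals. The knockout point lies below the control point in every class, from 0.793 and 0.529 in dendritic cells to 0.962 and 0.815 in endothelial cells. In neutrophils each point rests mostly on a single cell.

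Fixed gene lists of the wider pathway were read in the same gates. Over all genes, 8.57% were at least 1.5-fold higher and 14.4% lower in knockout dendritic cells. These shares were 21% and 12.2% in macrophages and 14.2% and 16.2% in monocytes. They were 12.8% and 17.4% in B cells and 11.7% and 12.8% in stromal cells. Of the class II transcription genes, 11 in number, 1 was at least 1.5-fold higher and 1 lower in knockout dendritic cells: Irf8, a factor that dendritic cells need to form, at 437 against 238 CPM (1.83), and Rfx5, a subunit of the factor that binds the X box, with 7 against 51 UMIs (0.247, 0.0945 to 0.546). Rfxap, its partner, was at 19.7 against 28.6 CPM (0.690). The cluster led by Irf8 and Naaa held 44 of 188 knockout (23.4%) and 23 of 238 control cells (9.66%) of the dendritic gate. The part of this makeup in the Irf8 ratio was not tested. In macrophages 2 of 10 measured genes were higher, against 21% of all genes there, Irf8 (1.65) and Rfxap (1.63, 0.760 to 3.36), and Nfyc (0.413) and Nfya (0.600, 0.282 to 1.16) were lower. Rfx5 there was at 1.26 (0.440 to 3.25). In monocytes 0 of 9 passed in either direction, with Rfxap at 1.01. In stromal cells 3 of 11 were higher, against the same 11.7%: Irf1 (2.26), Irf8 (4.62) and Spi1, with 11 and 14 UMIs (1.98, 0.815 to 4.71). Rfx5 there was at 0.965 and Rfxap at 0.953. In B cells 1 of 6 was higher, Nfya with 13 and 9 UMIs (2.04, 0.808 to 5.42).

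The other class II genes, H2-DMb2, H2-Oa, H2-Ob and H2-Eb2, were measured in dendritic and B cells. H2-Oa encodes part of H2-O, which restrains H2-DM. In dendritic cells 1 of 4 was higher, H2-Eb2 with 14 and 16 UMIs (1.57, 0.711 to 3.44), and H2-DMb2 (1.24) and H2-Oa (0.807) lay between the limits. In B cells 2 of 3 were higher, against 12.8% of all genes, H2-DMb2 at 247 against 123 CPM (2.004, 1.28 to 3.16) and H2-Oa at 121 against 65.0 (1.86, 0.985 to 3.58). H2-DMb2 was thus higher and H2-DMb1 lower in the B cells of the knockout library, though the latter rested on 1 cell.

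Processing and turnover genes differed most in monocytes. There 4 of 8 were at least 1.5-fold higher, against 14.2% of all genes, the lysosomal proteases Ctsl (3.36, 2.45 to 4.69), Ctsd (1.85) and Lgmn (1.99) and the ubiquitin ligase March8, with 19 against 1 UMIs (13.1, 2.08 to 544), and 2 lower, March1 (0.457, 0.336 to 0.621), a ligase that removes class II from the surface, and Sppl2a (0.623), which clears the Cd74 stub. In dendritic cells March1 was also lower, at 59.1 against 119 CPM (0.496, 0.414 to 0.592), and Lgmn was higher (1.73), the other 5 measured genes lying between. Ctss, the protease that trims Cd74, was at 0.781 in dendritic, 0.838 in macrophage and 0.847 in monocyte cells. Ctsl, which can do the same, was at 1.13 in dendritic cells. In macrophages 1 of 8 was higher, against the same 21%, Ctsl (1.98), with Lgmn at 1.44. In stromal cells 1 of 7 was higher, Ctss with 21 and 28 UMIs (1.89), with Ctsl at 1.29. In B cells Ctss (1.61) and Ctsd (2.04) were higher and Lgmn (0.582) lower, of 6 measured.

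Co-stimulation genes, whose products act beside class II on the T cell, were higher in 5 of 6 measured in knockout dendritic cells, against the same 8.57% of genes. Cd80 stood at 36.5 against 10.5 CPM (3.45, 2.44 to 4.94), Cd86 at 75.9 against 41.4 (1.83, 1.501 to 2.24), Cd83 at 694 against 269 (2.58, 2.40 to 2.77) and Cd274 at 11.2 against 3.10 (3.59, 1.87 to 7.19). Cd40 was at 1.61 (0.912 to 2.83). The median log2 ratio of the 6 was 1.12, against -0.12 over all genes. The knockout gate held more Ccr7 cells, as given above, and their part in this result was not tested. In macrophages Cd86 was higher (1.72) and Icosl lower (0.619, 0.265 to 1.29), of 3 measured. In monocytes 1 of 4 was lower, Icosl with 13 and 17 UMIs (0.527), with Cd80 at 1.32 and Cd86 at 1.15. The 2 measured in B cells lay between the limits, and in stromal cells Cd83, the 1 measured, was higher (1.57).

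MHC class I genes, which present peptides made inside the cell, showed few differences of 1.5-fold in the presenting cells, though they were lower as a list in monocytes. In dendritic cells 0 of 9 passed 1.5-fold, with H2-K1 at 0.864 and H2-D1 at 0.848. In macrophages 1 of 9 was higher, against the same 21%, H2-K1 (1.53, 1.38 to 1.69), with H2-D1 at 1.09. In monocytes 1 of 8 was lower, against the same 16.2%, Tap2 (0.606, 0.355 to 1.03). H2-K1 there was at 0.755 (0.644 to 0.884) and H2-D1 at 0.876 (0.792 to 0.970). The median log2 ratio of the 8 was -0.39, against -0.04 over all genes. In stromal cells 2 of 8 were higher, H2-K1 at 45.7 against 22.6 CPM (2.02, 1.61 to 2.55) and Tap1 (1.94, 1.35 to 2.75), with H2-D1 at 1.26. In B cells 0 of 8 passed, with H2-K1 at 1.37 and H2-D1 at 1.08. Of the genes that carry interferon gamma, the best known inducer of Ciita, only Socs1, a feedback inhibitor, passed in stromal (2.75, 2.20 to 3.45), monocyte (3.03) and dendritic cells (2.85), and Ifngr1 in B cells (1.70, 0.808 to 3.62). Ifng itself had 2 UMIs in control B cells and 0 in the other 4 gates and in knockout B cells. Ifngr1 was at 0.854 in dendritic, 0.877 in macrophage and 0.727 in stromal cells, and Ifngr2 at 1.14, 0.920 and 0.992.

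The genes whose levels most resembled the summed class II level over 18 combinations of class and library, among 7324 genes, were Snx20 (Pearson r 0.959), Dapp1 (0.947), Phf11b (0.945), Cfp (0.944), Ly86 (0.941), Irf5 (0.941), Laptm5 (0.939) and Cd52 (0.937). The points share libraries, and Laptm5 and Cd52 were among the markers used to gate immune cells, so these values are a description. The 7 genes themselves had an r of 0.892 for H2-DMb1, the lowest, 0.910 for Ciita and up to 0.997 for Cd74, each being part of the sum. Snx20 stood at 215 and 239 CPM in control and knockout dendritic cells and at 0.900 and 3.09 CPM in glia.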

How the data were processed

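The deposited values are counts of UMIs per gene and barcode, not normalised, from 10x Chromium 3′ v3.1 libraries. Cell Ranger wrote both matrices, version 5.0.0 for the control and 6.0.1 for the knockout per the file headers; version 6.0.1 and the build mm10 stand in the submitters' processing notes. Barcodes with at least 1000 UMIs, 500 genes and at most 10% mitochondrial UMIs were kept (2329 and 1683), and 20 and 4 Scrublet doublets were removed, fewer than expected, so undetected doublets remain. Immune cells had at least 4 of 6 pan-immune markers. Macrophages needed 5, B cells 5, dendritic cells 3, monocytes 5 and non-immune classes 6 detected markers of their own. The members, gene lists and markers were chosen with earlier results of these data known, and the gate limits after the data were seen.

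UMIs were summed per gate and library and scaled to CPM of the gate. Ratios carry exact conditional intervals for 2 Poisson rates, shares Clopper-Pearson intervals. A fold limit of 1.5 was read over genes with at least 20 UMIs in both libraries together. No p-value was computed, because cells are not replicates. The genes named are the 7 members in every class, the first 2 genes of each pathway list and list genes past 1.5-fold, and the 8 genes most like the sum by Pearson r of log2(CPM + 10), reaching 50 CPM, over combinations of at least 20 cells. The scripts were tested on simulated counts. Clusters were made on 2000 variable genes without the 7 genes (30 components, 15 neighbours, Leiden resolution 1). Tools were Python 3.11.15, scanpy 1.11.5, numpy 2.4.6, scipy 1.17.1 and pandas 2.3.3. Alternatives were other cell filters, gates, clusters, thinning, equal weight per cell, scaling, left-out cells, sex-split cells and a subtracted background. Ifi30 was not analysed here. The result of 1 list gene is not reported here.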

Additional observations from a re-analysis of the deposited data

Results flagged for a closer look

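The summed class II level was lower in knockout macrophages (knockout over control ratio 0.450) and differed little in dendritic cells (1.06). With 1 library per genotype the difference was not tested. Over the alternatives the macrophage ratio ran from 0.242 to 2.58 and the dendritic ratio from 1.01 to 1.15. Cells of at least 3000 CPM made up 42.6% of the control and 15.9% of the knockout macrophage gate. Class II RNA was also found outside the gates used above: immune cells that met no gate held 23513 CPM in the control and 40047 CPM in the knockout library, against 104 and 279.5 CPM in glia. At least 3000 CPM were found in 68 of 134 and 103 of 159 of these cells.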

How the results depend on the processing

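The values below are the summed knockout over control ratios under each alternative, which in dendritic cells ran from 1.01 to 1.15, in B cells from 0.921 to 1.57 and in stromal cells from 2.02 to 2.61. With a stricter cell filter they were 1.08 in dendritic, 0.623 in macrophage, 0.557 in monocyte and 0.921 in B cells, and with a looser filter 0.418 in macrophages. With 1 more marker required they were 1.01 in dendritic, 0.242 in macrophage and 0.163 in monocyte cells. Clusters in place of gates gave 1.03 in dendritic, 0.666 in monocyte and 1.41 in B cells, and in macrophages 1.42, with H2-Aa at 1.499, H2-Ab1 1.53, H2-Eb1 1.75, H2-DMa 1.75, H2-DMb1 2.25, Cd74 1.18 and Ciita 1.53. Thinning gave 1.03 in dendritic, 0.388 in macrophage, 1.30 in B and 2.16 in stromal cells. Equal weight per cell gave 1.04, 0.373 and 0.513 in dendritic, macrophage and monocyte cells and 1.35 in B cells. Median-of-ratios scaling gave 1.15 in dendritic cells and 0.411 in macrophages. Without the top cell they were 0.355 in macrophages and 1.57 in B cells, where H2-DMb1 was at 1.37. In cells with Xist UMIs they were 1.01 in dendritic, 0.379 in macrophage, 0.656 in monocyte and 1.06 in B cells. In cells with Y-linked UMIs they were 1.12 in dendritic, 0.597 in macrophage and 2.26 in stromal cells, with Ciita at 1.38 in macrophages, and 1.72 in monocytes, with H2-Aa at 3.36 and Cd74 at 1.45; this split was not run in B cells, which had too few such cells. In dendritic cells H2-Eb1 was at 1.005 with median-of-ratios scaling and Ciita at 1.01 in cells with Y-linked UMIs, both on the other side of 1 from the values above. The cause of these shifts was not tested.

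Further alternatives were chosen after seeing the data. Subtracting the glial level gave 0.459 in monocytes and 2.02 in stromal cells, where Cd74 was at 17.4, H2-Aa at 7.06 and H2-Ab1 at 5.49. These gene ratios rest on small control remainders. Cd74 was at 34.1 CPM (30.1 to 38.5) in control stromal cells and 33.0 (28.4 to 38.1) in control glia. The control intervals of stromal cells and glia also overlapped for H2-Aa and H2-Ab1, so the size of these ratios cannot be read. Macrophages with a Ccr2 UMI gave 0.821, and those without one 2.58, with H2-Aa at 3.03, H2-Ab1 3.64, H2-Eb1 3.22, H2-DMb1 1.94 and Cd74 2.73. Of 39 ratios, 14 stayed on 1 side of 1 under every alternative run, 10 above and 4 below. No paired analysis was possible because each genotype has 1 library. Depth limits Ciita outside dendritic cells, which rests on 75 or fewer UMIs in each gate and library.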

Other observations

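Neutrophils, which are not known as presenting cells, had median cells of 223 and 280.4 CPM, against glial medians of 93.0 and 254, although their summed levels were 4643 and 6423 CPM. A single cell held 96.0% of the control and 70.3% of the knockout class II UMIs of that gate. The T or NK gate held 5 class II UMIs in 4 control cells and 130 in 16 knockout cells, and no Ciita UMI in either library.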
